A study of Ovis aries with 9 samples.

Results

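The genes described here encode the receptors through which bone morphogenetic proteins (BMPs), activins, inhibins and transforming growth factor beta (TGF-beta) act on ovarian cells. They are the type I receptors BMPR1A, BMPR1B, ACVR1, ACVR1B and TGFBR1, the type II receptors BMPR2, ACVR2A, ACVR2B and TGFBR2, and the co-receptor TGFBR3. The list was set by name, without use of their values, and held 10 gene symbols. These matched 13 of the 27174 rows of the count table, because BMPR1B had 2 rows and BMPR2 had 3. Of the 13 rows, 11 passed the filter on low counts, and 10 rows, 1 for each symbol, held nearly all of the reads.

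Ovaries of 9 adult ewes in 3 groups of 3 were studied by RNA-Seq, with 1 library per ewe. The Han BB group (ewes W1, W2 and W4) were Small Tail Han sheep homozygous for FecB, a mutation in BMPR1B (genotype FecBBFecBB), and the Han ++ group (W6, W7 and W8) were Small Tail Han sheep without it (genotype FecB+FecB+). The Dorset group (D4, D5 and D6) were Dorset sheep labelled as wild type. All 9 ewes, the controls included, had received a progestagen sponge and pregnant mare serum gonadotropin to synchronize estrus, and whole ovaries with ovulation points were taken after the next spontaneous estrus. Han BB against Han ++ therefore compared the FecB genotypes within a breed, whereas each Han group against Dorset compared breeds, with the genotype differing as well in the case of Han BB. Because a whole ovary holds many cell types, fewer cells of a type and less RNA per cell cannot be told apart in any value given here.

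Ligands of this family bind a type II receptor together with a type I receptor, both of which are serine/threonine kinases. The type II receptor phosphorylates the type I receptor, which then phosphorylates SMAD proteins that enter the nucleus and regulate target genes. In the ovary, oocyte, granulosa and theca cells exchange such ligands during follicle growth, and ewes that carry FecB have a higher ovulation rate.

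The libraries held 10803913 to 20992535 counted reads. Levels are given as CPM, that is, counts of a row per 1000000 reads of its library after scaling by the trimmed mean of M values (TMM), whose factors ran from 0.880 in D4 to 1.07 in D5. No pair of libraries agreed within sampling noise. Marker genes of granulosa, theca, luteal, stromal, smooth muscle and endothelial cells all had reads in every group, as did OVGP1, a glycoprotein that marks the secretory cells of the oviduct. CYP19A1 and FOXL2, which define granulosa cells, were not analysed here, so that the granulosa check rested on 4 of 6 genes. Ewes W4 and D6 stood apart from the other 7. The summed level of the stromal markers was 4918 CPM in W4 and 4446 CPM in D6, and 7453 to 9117 CPM in the others. COL1A1 and DCN, a large part of that sum, were each lowest in these 2 ewes. PDGFRA of the same list was highest in them, at 1369 and 1284 CPM against 618 to 1113 CPM. Results that rest on these 2 ewes are given with and without them.

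BMPR1B, the receptor that carries FecB, and BMPR2, the type II receptor for BMPs and for the oocyte factors GDF9 and BMP15, were each split over rows with the same symbol and a numbered ending. The row BMPR1B.1 held 99.9% of the reads of its symbol, with 3562, 2528 and 2484 reads in the Han BB ewes, 4100, 4137 and 2744 in the Han ++ ewes and 1352, 2566 and 2870 in the Dorset ewes. The row without a number held 0.133%, from 0 reads in W4 to 8 in D4, and was too low to be tested. BMPR2.1 likewise held 99.6% of its symbol, from 1352 reads in D4 to 3679 in W7, whereas BMPR2.2 had 1 to 13 reads and BMPR2 without a number 0 to 9. Which stretch of a gene each row stands for was not given in the sources used here. Rows of this kind were common in the table. Of 1071 repeated symbols with at least 1000 reads in all, 1026 had 1 row with at least 95% of the reads. In 546 of the 1071 the row with the most reads was not the unnumbered row. In the text that follows, BMPR1B.1 and BMPR2.1 stand for their genes.

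**Figure D1:**
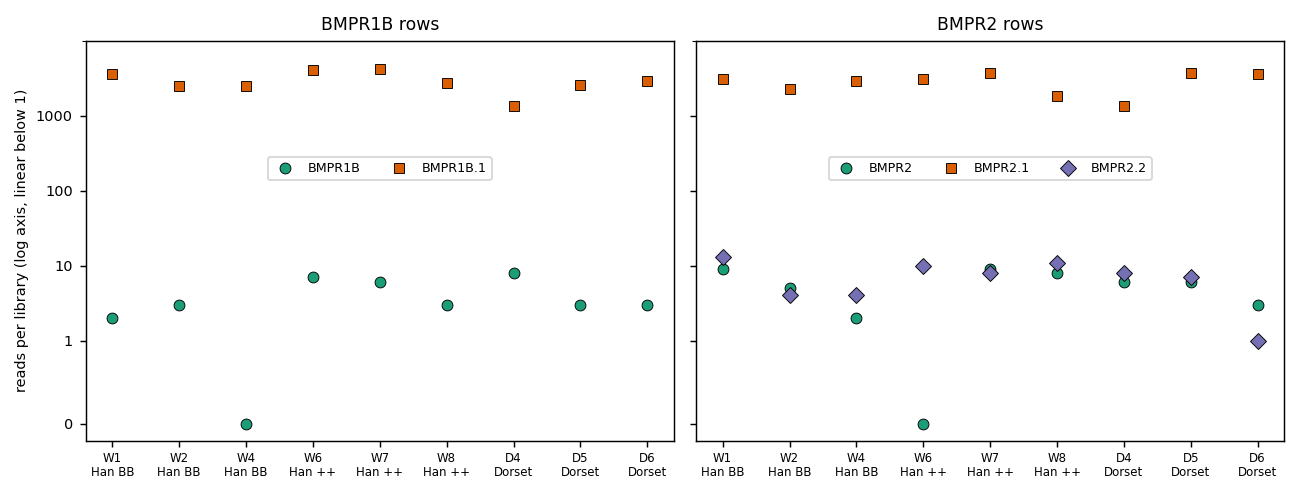
Reads per library (log axis, linear below 1) in each row of BMPR1B (left) and BMPR2 (right), 1 point per row and ewe. BMPR1B.1 lies between 1352 and 4137 reads and BMPR2.1 between 1352 and 3679, while the other rows of the same symbols stay at 13 reads or fewer.

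BMPR1B.1 was highest in the Han ++ ewes, intermediate in the Han BB ewes and lowest in the Dorset ewes. It stood at 169, 177 and 166 CPM in W1, W2 and W4, at 196, 187 and 253 CPM in W6, W7 and W8, and at 132, 116 and 160 CPM in D4, D5 and D6. The group means were 171 ± 5.65 CPM for Han BB, 212 ± 35.7 CPM for Han ++ and 136 ± 22.6 CPM for Dorset (SD, n = 3 each). No value of any group fell within the range of another. Among the 11 receptor rows tested it alone had groups that did not overlap under TMM scaling, in each of the 3 pairs. Of all 16871 rows tested, 4.27% had every Han BB ewe above every Dorset ewe, 5.47% had every Han ++ ewe above every Dorset ewe, and 4.59% had every Han ++ ewe above every Han BB ewe. The whole order, with no overlap, was seen in 0.202% of the rows, and 3 groups apart in any order in 0.551%.

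The separation of Han BB from Dorset was narrow and depended on the scaling. With library totals in place of TMM factors W4 stood at 157 CPM and D6 at 160 CPM, so that these groups overlapped (ACVR1B then also had every Han ++ ewe above every Han BB ewe, as did 6.15% of all tested rows), while the 3 Han ++ ewes (197 to 254 CPM) stayed above the other 6. With DESeq2 size factors the order of the groups was again free of overlap, at 170 in W4 and 163 in D6. The Han ++ ewes were the 3 highest under each of the 3 scalings.

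An exact permutation test over the 9 ewes was made for BMPR1B alone. It had been planned for a gene with too few reads for the filter, and BMPR1B.1 was tested after its counts had been seen. The exact permutation p for the between-group F ratio of BMPR1B.1 was 0.00357, the smallest that the 1680 arrangements can give. It describes a separation already seen and is no independent test of it. Each pair of groups gave a two-sided exact permutation p of 0.10, the smallest possible for 3 against 3, with differences in mean of 34.9 CPM for Han BB over Dorset, 76.0 CPM for Han ++ over Dorset and -41.1 CPM for Han BB over Han ++. The fit across all rows did not call the gene. In edgeR's quasi-likelihood fit the gene was 0.64 ± 0.26 (SE) higher in Han ++ than in Dorset on the log2 scale, a fold of 1.56, with an unadjusted p of 0.0310 and a Benjamini-Hochberg adjusted p of 0.891. For Han BB over Dorset edgeR gave 0.33 ± 0.26 on the log2 scale (adjusted p = 0.996), and for Han BB over Han ++ it gave -0.31 ± 0.26 (adjusted p = 0.999). Across the other settings tried, the log2 difference between Han ++ and Dorset lay between 0.52 and 0.78 and its adjusted p between 0.221 and 1.00. All p-values rest on these ewes, 3 to a group, and those of edgeR also draw on the spread of the other rows over all 9 libraries.

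The other BMPR1B row held next to no reads. Its levels were 0.0949, 0.210 and 0 CPM in the Han BB ewes, 0.334, 0.271 and 0.276 CPM in Han ++ and 0.779, 0.135 and 0.168 CPM in Dorset, with an exact permutation p of 0.418 over the 3 groups. At 0 to 8 reads per library it cannot show a difference, and adding it to BMPR1B.1 left the exact permutation p at 0.00357.

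Markers of other cells moved with BMPR1B.1 in part. The summed level of the oviduct secretory markers OVGP1 and PAX8 was 844 to 1123 CPM in the Han BB ewes, 771 to 1838 CPM in Han ++ and 377 to 720 CPM in Dorset, so that both Han groups lay above Dorset. Nearly all of it was OVGP1, at 371 to 1824 CPM over the 9 ewes. PAX8 did not follow this order. It was 3.14 to 9.21 CPM in Han BB, 9.45 to 14.0 CPM in Han ++ and 2.57 to 18.0 CPM in Dorset, which overlapped both. Of the 4 granulosa markers analysed, whose sum was 271 to 382 CPM in the Han BB ewes, 252 to 345 CPM in Han ++ and 409 to 519 CPM in Dorset, GJA1 made up nearly all (218 to 472 CPM over the 9 ewes). FSHR, the follicle-stimulating hormone receptor, overlapped between the groups, at 5.42 to 9.83, 6.56 to 14.4 and 7.65 to 13.6 CPM, and so did NR5A2. HSD17B1 was 0.0669 to 3.37 CPM in Han BB, below the 4.12 to 8.93 CPM of Han ++, and 1.56 to 10.9 CPM in Dorset, which overlapped both. The sum of the 4 markers of ciliated epithelium analysed, most of it DNAH5, overlapped between the groups, at 61.4 to 405, 111 to 217 and 41.7 to 149 CPM in the same order. FOXJ1, the transcription factor that defines ciliated cells, was 8.32 to 11.2 CPM in Han ++, above the 2.88 to 5.84 CPM of Han BB and the 2.61 to 3.13 CPM of Dorset, which overlapped. The part of any of these in the BMPR1B.1 levels was not tested.

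BMPR1A, another type I receptor that BMPs use in granulosa cells, had 312, 248 and 253 CPM in the Han BB ewes, 242, 277 and 192 CPM in Han ++ and 184, 329 and 276 CPM in Dorset. The lowest and the highest ewe, D4 and D5, both belonged to the Dorset group, and the groups overlapped throughout. Its means were 271 ± 35.7, 237 ± 43.0 and 263 ± 73.8 CPM (SD, n = 3), and its log2 fold changes were 0.04 ± 0.30 for Han BB over Dorset, -0.15 ± 0.30 for Han ++ over Dorset and 0.19 ± 0.30 for Han BB over Han ++ (SE).

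Reads of BMPR1A and BMPR1B.1 can be set against each other within a library, where scaling plays no part. BMPR1B.1 took 35.1, 41.6 and 39.6% of the reads of this pair in Han BB, 44.7, 40.3 and 56.9% in Han ++ and 41.8, 26.0 and 36.7% in Dorset. The extremes were W8 at 56.9% (Wilson 95% interval 55.5 to 58.3, counting error only) and D5 at 26.0% (25.1 to 26.9). D4, with the second lowest BMPR1B.1 level, had a share of 41.8% because its BMPR1A level was the lowest of all. The group means of 38.8 ± 3.33, 47.3 ± 8.60 and 34.8 ± 8.06% (SD, n = 3) overlapped, and an exact permutation test over the 3 groups gave p = 0.150. These are shares of reads and not of molecules, since the lengths of the transcripts were not used here.

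**Figure D2:**
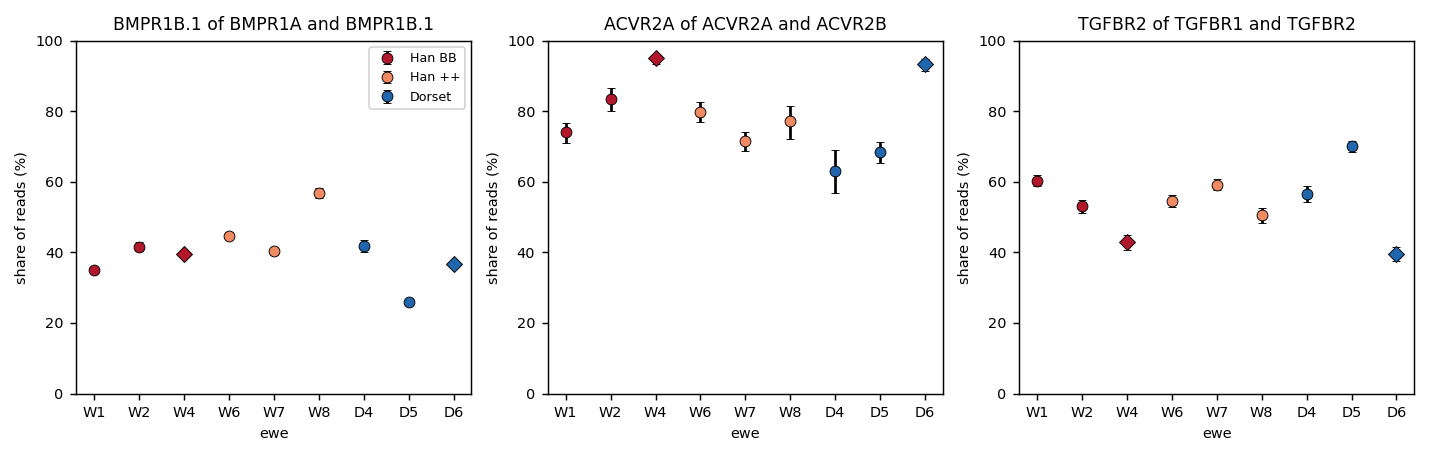
Share of reads within 3 receptor pairs in each library (percent), 1 point per ewe with its Wilson 95% counting interval. For BMPR1B.1 of BMPR1A and BMPR1B.1 the ewes run from 26.0% in D5 to 56.9% in W8 and the groups overlap, and for the other 2 pairs W4 and D6 lie at an end of the range.

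ACVR1, a type I receptor that serves BMPs and anti-Müllerian hormone, was 46.1, 43.8 and 60.9 CPM in the Han BB ewes, 42.9, 47.7 and 47.9 CPM in Han ++ and 35.9, 30.3 and 50.1 CPM in Dorset. The highest ewes were W4 and D6, and the other 2 Dorset ewes were the lowest of the 9. Its log2 fold change was 0.37 ± 0.27 for Han BB over Dorset, 0.25 ± 0.27 for Han ++ over Dorset and 0.12 ± 0.27 for Han BB over Han ++ (SE). With a term for W4 and D6 in the edgeR fit the Han ++ over Dorset difference was 0.45 ± 0.19 (unadjusted p = 0.0378, adjusted p = 0.366, Benjamini-Hochberg). Under that term 12.5% of all tested rows had an unadjusted p under 0.05 in this comparison.

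TGFBR1, the type I receptor for TGF-beta that also serves GDF9, was 69.6, 96.5 and 85.5 CPM in the Han BB ewes, 71.4, 74.4 and 90.8 CPM in Han ++ and 69.9, 48.4 and 79.4 CPM in Dorset. D5 was the lowest ewe, as it was for BMPR1B.1 and ACVR1. The log2 fold changes over Dorset were 0.35 ± 0.27 for Han BB and 0.26 ± 0.27 for Han ++, and Han BB over Han ++ was 0.09 ± 0.27 (SE).

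ACVR1B, the main type I receptor for activin, had few reads, from 63 to 356 per library. Its levels were 9.11, 9.81 and 5.49 CPM in the Han BB ewes, 10.7, 9.36 and 15.7 CPM in Han ++ and 6.13, 16.0 and 4.97 CPM in Dorset. The Dorset ewes alone covered the range of all 9, and the means of 8.14 ± 2.32, 11.9 ± 3.32 and 9.05 ± 6.09 CPM (SD, n = 3) were within that spread. The log2 fold changes of -0.16, 0.39 and -0.54 for Han BB over Dorset, Han ++ over Dorset and Han BB over Han ++ each had an SE of 0.46.

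Among the type II receptors, BMPR2.1 was the steadiest of the 10 genes. It was 147, 159 and 196 CPM in the Han BB ewes, 145, 166 and 167 CPM in Han ++ and 132, 165 and 199 CPM in Dorset, with means of 167 ± 25.6, 160 ± 12.5 and 165 ± 33.7 CPM (SD, n = 3). In the same 3 comparisons its log2 fold changes were 0.02, -0.05 and 0.07, each with an SE of 0.26. The SD of its log2 CPM over the 9 ewes was 0.19, and 2.41% of the tested rows had a smaller one, against a median SD of 0.54 over all rows. What spread there was lay along ewes and not groups, since W4 and D6 were the highest.

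ACVR2A, a type II receptor that binds activins and BMPs, was 32.9, 29.6 and 61.9 CPM in the Han BB ewes, 31.4, 34.6 and 21.5 CPM in Han ++ and 14.8, 27.8 and 49.1 CPM in Dorset. The highest ewes, W4 and D6, came from different groups, and D4 was the lowest. For Han BB over Dorset its log2 difference, 0.44 ± 0.44 (SE), was the largest of the 10 genes. This difference fell to -0.0004 when W4 alone was left out and rose to 0.97 when D6 alone was left out. Without both ewes it stood at 0.53, and with a term for W4 and D6 in the edgeR fit at 0.48. For Han ++ over Dorset the difference was -0.07 with all ewes and 0.44 without W4 and D6.

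ACVR2B, which binds the same ligands as ACVR2A, ran the other way across ewes. It was 11.6, 5.81 and 3.28 CPM in the Han BB ewes, 7.92, 13.7 and 6.36 CPM in Han ++ and 8.66, 12.8 and 3.52 CPM in Dorset, with W4 and D6 the lowest and 49 to 303 reads per library. The log2 fold changes were -0.27, 0.17 and -0.44 for Han BB over Dorset, Han ++ over Dorset and Han BB over Han ++, each with an SE of 0.56. Of the reads of ACVR2A and ACVR2B together, ACVR2A took 95% in W4 and 93.3% in D6. In the other ewes its share was 63.1 to 83.6%.

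TGFBR2, the type II receptor for TGF-beta, was 106, 109 and 64.2 CPM in the Han BB ewes, 85.5, 108 and 92.7 CPM in Han ++ and 91.0, 113 and 51.8 CPM in Dorset. W4 and D6 were again the lowest ewes and the other 7 were close to each other, at 85.5 to 113 CPM. In the 3 comparisons the log2 fold changes were 0.13, 0.16 and -0.03, each with an SE of 0.33. Of the reads of TGFBR1 and TGFBR2, the share of TGFBR2 was lowest in D6 (39.5%) and W4 (42.9%) and highest in D5 (70.1%).

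TGFBR3, or betaglycan, the co-receptor that presents TGF-beta to its receptors and gives inhibin its hold on the activin receptors, was 244, 190 and 217 CPM in the Han BB ewes, 168, 246 and 166 CPM in Han ++ and 120, 235 and 234 CPM in Dorset. D4 had the lowest level and the highest ewes were spread over the 3 groups. Its fold changes on the log2 scale were 0.14, -0.02 and 0.17, each with an SE of 0.33.

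**Figure D3:**
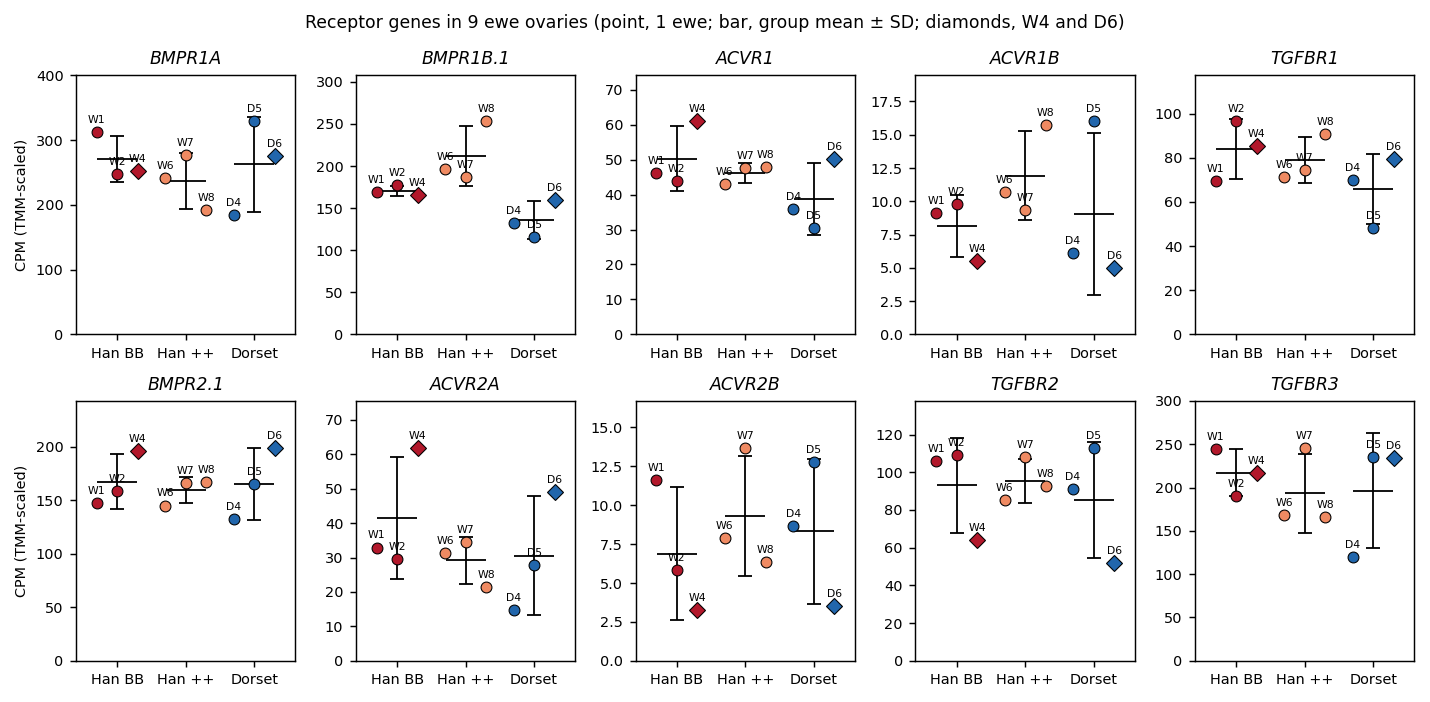
Level of each receptor gene in the 9 ovaries (CPM after TMM scaling, each panel with its own axis from 0), 1 point per ewe, with bars for the group mean and SD (n = 3) and diamonds for W4 and D6. Under this scaling only BMPR1B.1 shows groups that do not overlap (with library totals its Han BB and Dorset groups do), while W4 and D6 are the highest ewes for BMPR2.1, ACVR1 and ACVR2A and the lowest for ACVR1B, ACVR2B and TGFBR2.

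No receptor passed the threshold of the study, an adjusted p under 0.05 with a fold change beyond 1.5 in either direction, in any comparison. By edgeR 0 of the 11 receptor rows were called in Han BB against Dorset, where 0% of all tested rows were called, 0 in Han ++ against Dorset, where 0.00593% were called (1 row), and 0 in Han BB against Han ++, where 0% were called. At an unadjusted edgeR p under 0.05 the counts were 0, 1 and 0 of 11, beside 4.99, 5.27 and 1.97% of all rows in the same order, and the 1 was BMPR1B.1. DESeq2 called 0.277, 0.448 and 0.0119% of the rows it gave an adjusted p, and 0 receptors. With the term for W4 and D6 edgeR called 0.00593, 0.462 and 0% of all rows, and again 0 receptors. Calls of a difference of any kind among the 3 groups also numbered 0 by edgeR, with 0 of 11 receptor rows and 3.94% of all rows at an unadjusted p under 0.05. BMPR1B.1 had the smallest p of the receptors in that test, 0.0876 by edgeR (adjusted p = 1).

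Of the 10 receptor genes, 8 had a log2 fold change above 0 for Han BB over Dorset, from -0.27 to 0.44 with a median of 0.13. For Han ++ over Dorset 6 were above 0, from -0.15 to 0.64 with a median of 0.16, and for Han BB over Han ++ 6 were above 0, from -0.54 to 0.51 with a median of 0.08. The medians over all tested rows were -0.01, -0.06 and 0.04. Since the 3 comparisons share groups, these counts do not stand apart from each other. The SEs of 0.26 to 0.56 give the precision of these differences with 3 ewes per group. Changes of that size could have gone unseen, and larger ones were not called either. In Han ++ over Dorset the 0.64 of BMPR1B.1 had an edgeR adjusted p of 0.891. In the same comparison the -1.21 of BAMBI.1, described below, had an edgeR adjusted p of 0.576. The differences of ACVR1B, ACVR2A and ACVR2B were the least precise.

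**Figure D4:**
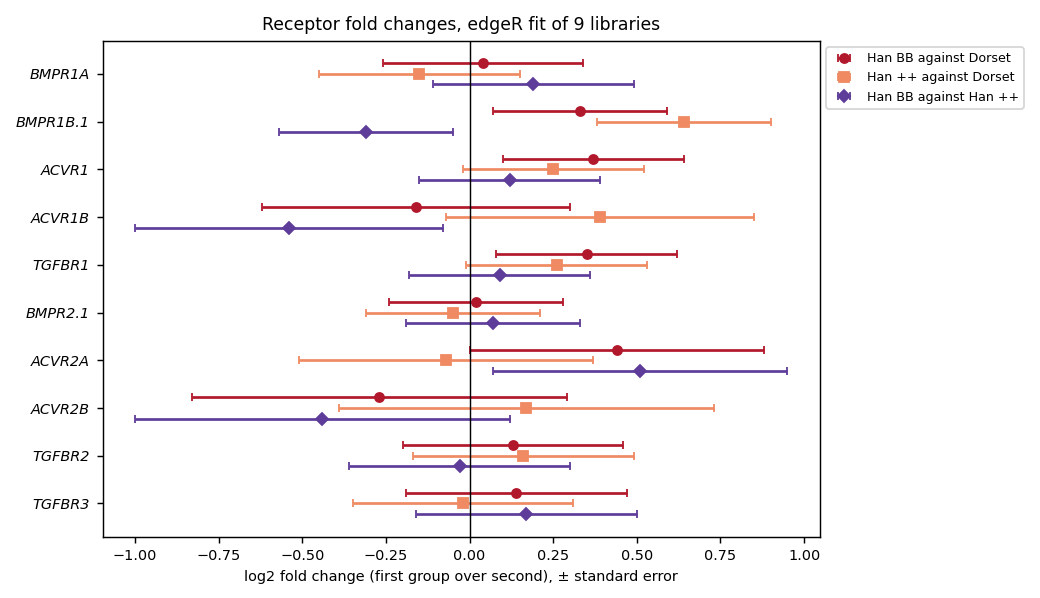
Log2 fold change of the 10 receptor genes in the 3 comparisons by edgeR, with bars of 1 standard error. The values run from -0.54 to 0.64, none has an adjusted p under 0.05, and BMPR1B.1 in Han ++ over Dorset is the largest.

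Most of the receptors set 2 single ewes apart rather than a group, BMPR1B.1 being an exception. W4 and D6, 1 from Han BB and 1 from Dorset, were the highest ewes for BMPR2.1, ACVR1 and ACVR2A and the lowest for ACVR1B, ACVR2B, TGFBR2 and the sparse row BMPR2.2, that is, in 7 of 11 rows. Over all tested rows they were the highest in 18.6%, the lowest in 17.5%, and either in 36.1%. For ACVR2A they stood at 61.9 and 49.1 CPM against 14.8 to 34.6 CPM in the other 7 ewes, and for BMPR2.1 at 196 and 199 CPM against 132 to 167 CPM. BMPR1A, BMPR1B.1, TGFBR1 and TGFBR3 did not set these ewes apart. With library totals in place of TMM factors ACVR1 left the list, for 6 of 11 rows beside 34.3% of all. Of the stromal markers, COL1A1 and DCN were lowest and PDGFRA was highest in the same ewes, and their part in these levels was not tested.

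ACVR2B, ACVR1B and ACVR2A varied most, with an SD of log2 CPM of 0.75, 0.61 and 0.60 over the 9 ewes, above the median of 0.54 for all rows. The other 7 lay between 0.19 (BMPR2.1) and 0.39 (TGFBR2). ACVR2B and ACVR1B were also the genes with the fewest reads.

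**Figure D5:**
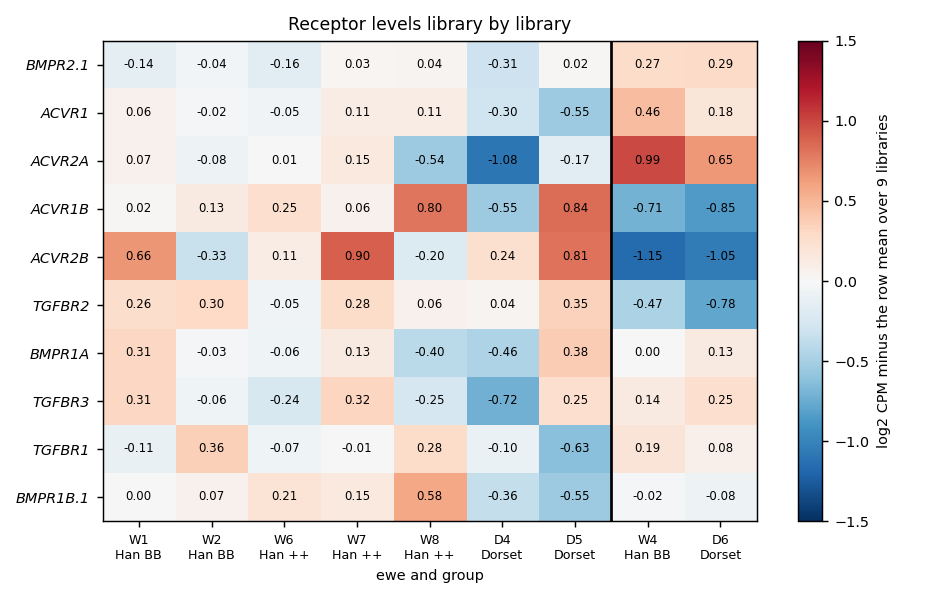
Difference of each receptor gene's log2 CPM in an ewe from that gene's mean over the 9 ewes, genes in rows and ewes in columns. W4 and D6 are taken out of their groups and placed last, after a vertical line. Columns W4 and D6 share their highs (ACVR2A, ACVR1, BMPR2.1) and lows (ACVR1B, ACVR2B, TGFBR2) although they belong to different groups. Under TMM scaling only BMPR1B.1 has groups that do not overlap, with W4 at -0.02 and D6 at -0.08. With library totals its Han BB and Dorset groups overlap.

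Across the 9 ewes, which differ in depth and among which W4 and D6 stand apart, some receptors moved together. The libraries with the fewest reads, W8 (10803913) and D4 (11716565), were the lowest for BMPR1A, TGFBR3 and ACVR2A. W8 was, however, the highest for BMPR1B.1. The part of depth in these relations was not tested. Of 45 pairs of genes the median Pearson r of log2 CPM was 0.07, 7 pairs had an r of at least 0.7, and 0 had one of -0.7 or below. The closest pair was BMPR1A and TGFBR3 (r = 0.89, Spearman's rho = 0.93), and it was as close without W4 and D6 (r = 0.91). ACVR1 with TGFBR1 (r = 0.74), ACVR2A with TGFBR3 (0.73) and BMPR1B.1 with TGFBR1 (0.71) were likewise no looser without these ewes, at 0.78, 0.85 and 0.77. By contrast ACVR2B with TGFBR2 went from 0.84 to 0.45, BMPR2.1 with ACVR2A from 0.80 to 0.50, and ACVR1B with TGFBR2 from 0.73 to 0.22. Over the 7 ewes other than W4 and D6, 9 pairs had an r of at least 0.7, 4 of them among the 7 named above, and 1 had one of -0.7 or below, ACVR2B with TGFBR1 (-0.63 in all 9 ewes, -0.75 in 7). BMPR1B.1 with ACVR1 went from 0.61 to 0.89, BMPR2.1 with ACVR1B from -0.28 to 0.78, TGFBR2 with TGFBR3 from -0.04 to 0.77, BMPR1A with TGFBR2 from 0.12 to 0.74 and BMPR1A with ACVR2A from 0.57 to 0.78. BMPR1A and BMPR1B.1, the paired BMP type I receptors, had an r of -0.38. These are descriptions of 9 libraries and carry no test.

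Among the 13317 rows with a mean log2 CPM of at least 1, those whose pattern over the 9 ewes was most like that of a receptor had a Pearson r of 0.928 to 0.992. For BMPR1B.1 they were LOC101121431 (r = 0.946) and CLDN7 (0.940), which encodes a claudin of epithelial tight junctions. For BMPR1A they were GTDC1 (0.937) and LOC101111507 (0.935), for ACVR1 NEK10 (0.984) and RTN4 (0.956), and for TGFBR1 MARCH3 (0.954) and RNFT1 (0.952). For ACVR1B they were MYO9B (0.964) and FGD1 (0.958). The type II receptors were matched by LOC101120698 (0.983) and UBA2 (0.976) for BMPR2.1, IPO5 (0.992) and FNDC3A (0.991) for ACVR2A, PRUNE (0.966) and UCK1 (0.957) for ACVR2B, and KLHL21 (0.983) and LOC101112849.1 (0.975) for TGFBR2. Those of TGFBR3 were LOC101112367 (0.964) and LOC443489 (0.928). With so many rows searched over 9 ewes, high values of r arise readily, and none was tested.

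The genes that act with these receptors were taken from 6 lists of 64 symbols, of which 55 were tested. BMP15, GDF5, GDF6, ACVR1C and NOG were below the filter. By edgeR 0 of the 55 were called in each of the 3 comparisons. At an unadjusted p under 0.05 stood 3 of 55 in Han BB against Dorset, all lower in Han BB, 4 of 55 in Han ++ against Dorset, 2 of them higher and 2 lower in Han ++, and 0 of 55 in Han BB against Han ++, where all rows gave 4.99, 5.27 and 1.97%. The genes named below are the 3 with the smallest p in each comparison, and none of them passed the threshold.

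Of the ligands, 13 of 16 were tested and the median log2 fold changes were -0.04, -0.19 and -0.06 in Han BB over Dorset, Han ++ over Dorset and Han BB over Han ++. TGFB1, which encodes a ligand of TGFBR2 and TGFBR1, was 31.4 ± 20.7 CPM in the Han ++ ewes, 16.5 ± 7.78 CPM in the Han BB ewes and 9.29 ± 5.42 CPM in the Dorset ewes (SD, n = 3), a log2 difference of 1.76 ± 0.57 (SE) for Han ++ over Dorset with an adjusted p of 0.754 by edgeR. The SD in Han ++ was close to the difference between the means. BMP4, a BMP ligand, at 16.1 ± 5.30 CPM for the Han BB ewes, stood above the 10.4 ± 2.67 CPM of the Han ++ ewes by 0.62 ± 0.34 on the log2 scale, which missed an unadjusted edgeR threshold of 0.05, and AMH, the granulosa cell hormone that signals through ACVR1 and BMPR1A, was 0.710 ± 0.468 against 1.82 ± 0.544 CPM (log2 difference -1.33 ± 0.69, edgeR adjusted p = 0.999).

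The other receptors and co-receptors, 7 of 8 tested, had medians of -0.17, 0.32 and -0.34. In this list BAMBI.1, a row of the decoy receptor that lacks a kinase and dampens the signal, had means of 15.4 ± 5.15 CPM (Han BB) and 12.3 ± 0.580 CPM (Han ++) against 28.4 ± 5.78 CPM (Dorset) (SD, n = 3). The log2 differences from Dorset were -0.88 ± 0.31 and -1.21 ± 0.32, and the edgeR adjusted p-values were 0.975 and 0.576.

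The extracellular antagonists, which bind ligands before they reach a receptor, had medians of -0.55 for Han BB over Dorset, -0.42 for Han ++ over Dorset and -0.10 for Han BB over Han ++. Of the 9 tested, 1 was higher in Han BB than in Dorset, and 2 were higher in Han ++. FST, encoding follistatin, which binds activin, averaged 24.2 ± 11.3 CPM for Han BB, 30.8 ± 11.6 CPM for Han ++ and 52.6 ± 23.3 CPM for Dorset, with a log2 difference of -1.12 ± 0.44 for Han BB over Dorset (edgeR adjusted p = 0.975).

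The 7 SMADs tested had medians close to those of all genes, at -0.05, -0.09 and 0.02, with 0, 1 and 4 of 7 higher. The 11 intracellular regulators of the receptors had medians of 0.02, -0.11 and 0.04. PPP1R15A, a regulatory subunit that brings a phosphatase to its substrates, TGFBR1 among them, and that is also known as a gene of the stress response, was 56.3 ± 6.55 CPM in the Han BB ewes, 78.6 ± 12.5 CPM in Han ++ and 129 ± 26.7 CPM in Dorset (SD, n = 3). Its log2 difference from Dorset was -1.19 ± 0.27 in Han BB (edgeR adjusted p = 0.749) and -0.71 ± 0.26 in Han ++ (edgeR adjusted p = 0.874), with -0.48 ± 0.26 between the Han groups.

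Of the target genes that SMADs switch on, 8 of 10 were tested. In Han BB against Dorset 0 of 8 were higher and in Han ++ against Dorset 1 of 8, with medians of -0.40 and -0.43, against 4 of 8 and a median of -0.04 in Han BB against Han ++. None of the 8 was called.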

How the data were processed

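Whole transcriptome libraries from the ovaries of 9 ewes (3 Han BB, 3 Han ++, 3 Dorset) were sequenced. Per the labels and the methods of the study, reads were aligned to the sheep genome Oar_v3.1 with TopHat and uniquely mapped reads were used. The counting program, the tool versions and the use of strand were not given in the sources used here, and the library kit was named in more than 1 way. The deposited values were raw read counts per gene row, which the authors compared with DESeq. Gene symbols were taken from the table, and all 10 matched RefSeq sheep genes. Positions, transcript lengths and protein sequences were not analysed here.

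The counts were fitted with edgeR 4.0.16 in R 4.3.3 (TMM factors, filterByExpr by group, quasi-likelihood test, 1 fit of all 9 libraries with group as the only factor), which tested 16871 of 27174 rows with a common biological coefficient of variation of 0.472. P-values were adjusted by the Benjamini-Hochberg method over all tested rows, and rows were called at an adjusted p under 0.05 with a fold change beyond 1.5 in either direction. The SE of an edgeR log2 fold change was the absolute fold change on that scale divided by the square root of the quasi-likelihood F. For a symbol with several rows, the row with the most reads stood for the gene. BMPR1B was also compared by a two-sided exact permutation test of its CPM over ewes (scipy 1.17.1). That test had been planned for a gene with too few reads for the filter, which held only for the unnumbered row. The row BMPR1B.1 was tested in the same way after its counts had been seen. Correlations used log2 CPM with a prior count of 0.5. Intervals of shares are Wilson 95% intervals and cover counting error only.

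All 10 receptors were named, with the 3 pathway genes of smallest p per comparison where none passed the threshold and, for each receptor, the 2 rows of most similar pattern. The receptors, the pathway and marker lists and the tests were chosen with earlier results of these data known. Some genes of these lists are not reported here. Alternatives were DESeq2 1.42.0, limma 3.58.1, other scalings and filters, fits of 2 groups, a term for W4 and D6 or their omission, and each library left out in turn. The edgeR step was tested on simulated data.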

Additional observations from a re-analysis of the deposited data

How the results depend on the processing

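No receptor was called in any comparison under any alternative run. The log2 fold changes of the 10 receptor genes gave 600 values under alternatives, of which 550 kept their direction and side of the threshold and 50 changed sign. The largest value with all ewes among those that changed sign was 0.44. BMPR1B.1 kept its direction throughout, but its differences were smaller without W8, its highest ewe. Han ++ over Dorset was then 0.52 against 0.64 with all ewes, and Han BB over Han ++ was -0.17 against -0.31.

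With library totals the log2 fold change was 0.017 for BMPR2.1 and 0.029 for TGFBR3 in Han ++ over Dorset, and -0.010 for BMPR2.1 in Han BB over Han ++. With limma it was -0.079 for BMPR2.1 in Han BB over Dorset, 0.095 for ACVR2A in Han ++ over Dorset, and -0.029 for BMPR2.1 and 0.13 for TGFBR2 in Han BB over Han ++. With a term for W4 and D6, and without these ewes, Han ++ over Dorset gave 0.095 and 0.10 for BMPR2.1, 0.41 and 0.44 for ACVR2A, -0.17 and -0.20 for ACVR2B, -0.062 and -0.10 for TGFBR2, and 0.053 and 0.11 for TGFBR3. In the same order, Han BB over Han ++ gave -0.072 and -0.069 for BMPR2.1, -0.065 and -0.046 for ACVR1, and 0.21 and 0.17 for TGFBR2. The cause was not tested.

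Leaving out 1 ewe at a time, Han BB over Dorset ranged from -0.16 to 0.24 for BMPR1A, -0.14 to 0.19 for BMPR2.1, -0.46 to 0.56 for ACVR1B, -0.0004 to 0.97 for ACVR2A, -0.88 to 0.20 for ACVR2B, -0.13 to 0.40 for TGFBR2 and -0.12 to 0.29 for TGFBR3. Han ++ over Dorset ranged from -0.36 to 0.039 for BMPR1A, -0.20 to 0.10 for BMPR2.1, -0.40 to 0.45 for ACVR2A, -0.23 to 0.64 for ACVR2B, -0.10 to 0.42 for TGFBR2 and -0.29 to 0.11 for TGFBR3. Han BB over Han ++ ranged from -0.069 to 0.15 for BMPR2.1, -0.046 to 0.22 for ACVR1, -0.014 to 0.20 for TGFBR1 and -0.16 to 0.17 for TGFBR2.

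For BMPR1B.1 over the 3 groups the exact permutation p was 0.00357, 0.00714 with library totals, 0.0286 without W4 and D6, and 0.00357 to 0.0393 with 1 ewe left out, whereas the edgeR fit with no filter gave p = 0.172. Over all rows, calls in Han BB against Dorset, Han ++ against Dorset and Han BB against Han ++ numbered 0, 1 and 0 in edgeR, 43, 74 and 2 in DESeq2, 0, 0 and 2 in limma, 2, 11 and 0 with no filter, 1, 78 and 0 with the term for W4 and D6, and 2, 22 and 0 without them. Summing rows of the same symbol, an alternative chosen after seeing the data, gave 0, 1 and 0. No paired analysis was possible because the numbers name single ewes and the groups share fewer than 2 of them.

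With 3 ewes per group, SEs of 0.26 to 0.56 and few reads of ACVR1B and ACVR2B, small differences could not be seen. Differences larger than these SEs could also go uncalled.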
